A study of Homo sapiens with 21 samples.

Results

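Small nucleolar and Cajal body RNAs were followed in A673, an established Ewing sarcoma cell line that carries the EWS/FLI fusion gene. The deposited table has 493 rows named SNORD, SNORA or SCARNA followed by a number, and the 97 that reached 10 on the linear scale in at least 3 of the 21 libraries are described here: 42 of 280 box C/D RNAs (SNORD), 41 of 193 box H/ACA RNAs (SNORA) and 14 of 20 Cajal body RNAs (SCARNA). Of the other rows, 260 are listed at 0 in every library and 136 were under that level. The members were thus selected on measured levels, the log2 values of this table, and the levels themselves are given as description.

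There are 5 groups, all made from A673 cells that were stably infected with an RNAi virus, selected for 4 days and then infected with a pMSCV-hygro vector. In control cells the RNAi was against luciferase and the vector was empty (n = 4). In knockdown cells the RNAi was against EWS/FLI and the vector was again empty (n = 5). The rescue groups carried the same EWS/FLI RNAi with a vector for wild-type type IV EWS/FLI (n = 5), the delta 22 mutant (n = 4) or the mut9 mutant (n = 3). The model is a single cell line with vector-driven fusion protein. Replicate numbers equal the labelled batch, and nothing in the labels says whether replicates were separate infections, so p-values measure only the spread between these libraries, and part of it may be technical.

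Box C/D RNAs pair with ribosomal RNA and guide the methylation of its riboses by fibrillarin, while box H/ACA RNAs guide the conversion of uridine to pseudouridine by dyskerin. A few, such as U3 (SNORD3A) and U17 (SNORA73B), take part in the cleavage of the ribosomal RNA precursor instead. Cajal body RNAs have the same structures but stay in Cajal bodies, where they guide modification of the spliceosomal RNAs. In human cells most of these RNAs are cut from introns of host genes, so that their supply depends on transcription and splicing of the host as well as on their assembly with proteins. Of the 97 members, 92 lie within a host gene on their own strand in GENCODE 29 (75 hosts), 78 of them in an intron and 14 overlapping an exon, and 5 had no host. Reads of the host's precursor RNA at such a position cannot be told apart from reads of the mature small RNA in this table.

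The boxes that give the classes their names were searched in the GENCODE 29 transcripts (GRCh38), all of which were found by gene identifier. The letters TGATGA within the first 20 bases together with CTGA within the last 15 bases were found in 30 of 42 box C/D members (71.43%), 0 of 41 box H/ACA members and 5 of 14 Cajal body members. ACA followed by exactly 3 bases at the 3′ end was found in 30 of 41 box H/ACA members (73.17%), 0 box C/D members and 7 of 14 Cajal body members (50%). A match is a description of the letters only, on the transcribed strand. The sequences below are those of the members on which the results turn, 5′ to 3′, written as DNA, with the matched boxes in capitals. The first 4 belong to a cluster of box C/D RNAs in introns of MEG8 at the imprinted DLK1-DIO3 locus of chromosome 14.
SNORD113-6: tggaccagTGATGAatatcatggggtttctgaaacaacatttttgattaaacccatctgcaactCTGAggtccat
SNORD114-1: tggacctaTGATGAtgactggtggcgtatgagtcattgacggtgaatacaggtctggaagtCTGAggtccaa
SNORD114-9: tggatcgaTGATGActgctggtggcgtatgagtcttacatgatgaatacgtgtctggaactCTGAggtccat
SNORD114-14: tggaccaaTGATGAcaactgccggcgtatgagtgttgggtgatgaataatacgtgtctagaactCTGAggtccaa

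They lie on the plus strand at chr14:100939556-100939630, chr14:100949833-100949904, chr14:100966029-100966100 and chr14:100972103-100972177 (GRCh38). The 7 members of this cluster shared between 63.6% and 94.4% of their bases by pair (median 80.6%, 21 pairs), so none are identical copies. SNORD114-9, SNORD114-25 and SNORD114-28 shared 90.3% to 94.4%, so reads can be shared between them and their separate values are uncertain. The next 3 are box C/D RNAs that moved and have hosts of different kinds, SNORD104 in SNHG25, SNORD60 in SNHG19 and SNORD89, which overlaps an exon of RNF149.
SNORD104: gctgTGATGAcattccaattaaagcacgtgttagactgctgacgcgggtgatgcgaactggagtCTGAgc
SNORD60: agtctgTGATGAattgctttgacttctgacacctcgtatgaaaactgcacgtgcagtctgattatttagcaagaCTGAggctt
SNORD89: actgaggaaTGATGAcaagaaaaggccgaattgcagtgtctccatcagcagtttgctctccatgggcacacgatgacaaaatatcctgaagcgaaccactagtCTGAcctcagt

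They lie at chr17:64146083-64146152 (plus strand), chr16:2155023-2155105 (minus strand) and chr2:101272936-101273049 (minus strand). The box H/ACA RNAs shown next fell with the knockdown and have hosts that behaved differently: SNORA30 in an intron of SRCAP and SNORA26 in an intron of DANCR. SNORA7B, in an intron of the pseudogene RPL32P3, moved the other way.
SNORA30: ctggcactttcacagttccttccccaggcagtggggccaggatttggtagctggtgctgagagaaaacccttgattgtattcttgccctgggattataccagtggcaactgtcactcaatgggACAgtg
SNORA26: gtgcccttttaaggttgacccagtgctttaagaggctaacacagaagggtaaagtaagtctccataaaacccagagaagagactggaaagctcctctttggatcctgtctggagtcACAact
SNORA7B: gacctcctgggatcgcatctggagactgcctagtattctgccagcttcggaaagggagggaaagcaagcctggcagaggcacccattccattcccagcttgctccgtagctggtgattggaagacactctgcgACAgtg

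They lie at chr16:30710537-30710665 (plus strand), chr4:52713249-52713370 (plus strand) and chr3:129397210-129397348 (minus strand). Of the Cajal body RNAs, SCARNA12 fell and SCARNA13 rose. SCARNA12 has box C/D letters at both ends, and SCARNA13 has the ACA box.
SCARNA12: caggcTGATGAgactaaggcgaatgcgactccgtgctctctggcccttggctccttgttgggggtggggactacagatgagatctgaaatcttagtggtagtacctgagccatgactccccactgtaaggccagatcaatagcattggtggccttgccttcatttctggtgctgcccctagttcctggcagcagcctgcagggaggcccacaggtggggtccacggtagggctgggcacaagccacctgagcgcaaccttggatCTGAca
SCARNA13: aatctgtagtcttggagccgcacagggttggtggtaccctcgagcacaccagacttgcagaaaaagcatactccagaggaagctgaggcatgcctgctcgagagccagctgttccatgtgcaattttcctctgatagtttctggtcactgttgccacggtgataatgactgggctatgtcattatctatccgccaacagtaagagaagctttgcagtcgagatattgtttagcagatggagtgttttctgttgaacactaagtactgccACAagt

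They lie on the minus strand at chr12:6967337-6967606, where the transcript overlaps an exon of PHB2, and chr14:95533355-95533629, in an intron of SNHG10. SNORA30, SNORA26, SNORA24B and SNORA54, and RTL1 and MEG9 among other genes, were picked for description after their values were seen.

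The share of rows detected differed with annotated length: 30 of 260 rows of up to 100 bases (11.54%), 49 of 201 between that and 160 bases (24.38%) and 18 of 32 longer rows (56.25%) were members. RNA was prepared on a silica column, a method known to keep short RNA poorly, and whether this bears on the detection of the shorter classes was not tested. Just inside the threshold, the third highest library was at 10.3 for SNORA65, 10.4 for SNORD66 and 10.9 for SNORA37 on the linear scale, and just outside it was at 9.69 for SNORD71 and 9.37 for SNORD12C. The threshold was reached in all 21 libraries by 72 members. The other 25 reached it in fewer, and some only through groups in which they are high: SNORA54 reached it in 5 of 5 knockdown libraries and in 0 control and 0 wild-type libraries. For such members a difference was built into the choice.

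The most abundant members were SNORA73B (U17, mean 3399 on the linear scale over all libraries), SNORA49 (2284), SNORD3A (U3, 1841), SCARNA12 (1731) and SCARNA7 (1120). These values are not per length and include host reads, so they order the rows of the table rather than the RNAs in the cell. The 4 U3 rows are 99.1% to 100% identical in sequence and the SNORA22 rows 92.8% to 98.5%, so reads can be shared between them and their values are uncertain. Several RNAs that every cell uses, SNORD13, SNORD118 (U8) and 3 of the U14 copies, are listed at 0, and rows for SNORA73A and SCARNA2 were not analysed here.

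FLI1, whose 3′ part is in the fusion, checked the labels. Control libraries lay between log2 11.56 and 11.69, knockdown libraries between 9.59 and 9.99, wild-type between 10.35 and 10.69, delta 22 between 10.99 and 11.51 and mut9 between 10.1 and 10.39, so the rescue groups differ in its level. Genes of Ewing sarcoma cells such as NR0B1 were present (log2 7.82 to 12.22), CD99 is listed at 0, and of 8 markers of other cell types PTPRC and CDH5 were low (at most 4.3 and 4.98) and the rest were under the threshold. The deposited log2 values keep no library totals, and between 16708 and 17326 genes reached 10 per library. Within groups the median residual SD was 0.348 log2 for box C/D, 0.435 for box H/ACA and 0.28 for Cajal body RNAs, against 0.207 over all 18040 genes tested, and 0.348 against 0.151 among rows with a mean of at least 100. In bulk samples, fewer cells of a type and less RNA per cell cannot be told apart.

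In single libraries most of the family was low. In wild-type replicate 5, 87 of 97 members were below the mean of the rest of their group, with a median deviation of -0.79 log2, and all 41 box H/ACA members were, with a median of -1.06. In delta 22 replicate 1, 89 of 97 were below (median -0.49), and in knockdown replicate 1, 75 of 97 (median -0.33). In the latter these were 40 of 41 box H/ACA, 27 of 42 box C/D and 8 of 14 Cajal body members. In those 3 libraries the median over all genes moved by at most 0.03. Other libraries were high. In wild-type replicate 2 only 13 of 97 members were below the rest of the group, which includes replicate 5 (median 0.42). In knockdown replicate 5 only 1 of 42 box C/D members was below (median 0.45). The mean over the 41 box H/ACA members was 5.78, 6.22, 6.08, 6.01 and 4.92 in wild-type replicates 1 to 5. Knockdown libraries were at 5.5, 6.14, 6.16, 6.03 and 6.19 and control libraries at 6.24, 6.17, 6.37 and 6.13. Delta 22 libraries were at 5.41, 6.37, 6.23 and 5.99 and mut9 libraries at 6.27, 6.04 and 5.99. Results that rest on the 3 low libraries are given both ways.

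**Figure D1:**
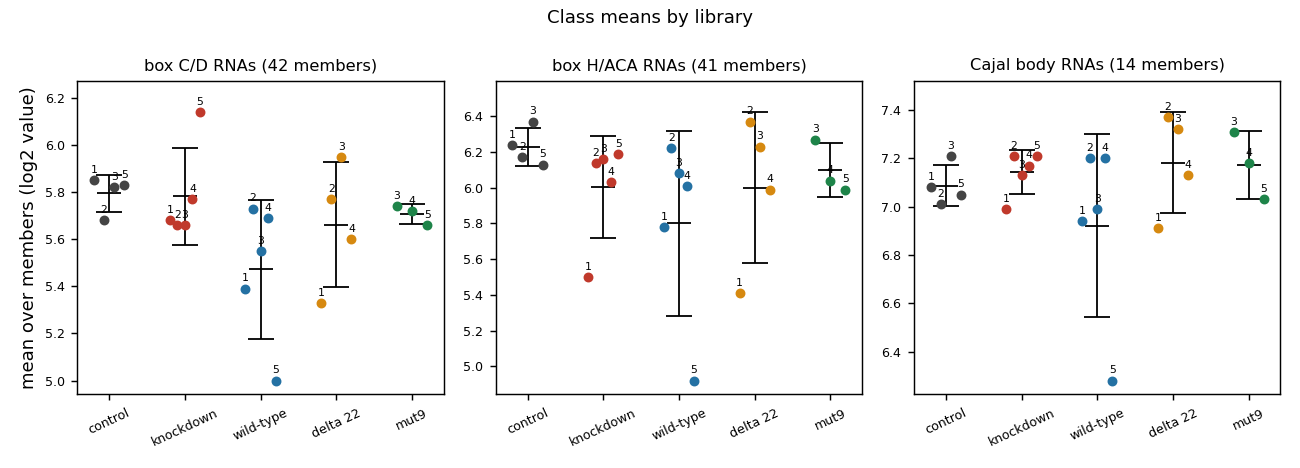
Mean log2 value over the members of each class (vertical axis) in each library, by group (horizontal axis), with the replicate number beside each point and the group mean and SD as bars. Wild-type replicate 5 is the lowest library in all 3 panels, at 4.92 for box H/ACA RNAs, while the control libraries lie between 6.13 and 6.37 in that panel.

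Comparing knockdown with control asks which of these RNAs follow EWS/FLI. A group of box C/D and Cajal body RNAs rose and another set, in which box H/ACA RNAs were the largest class, fell. Of the 97 members 13 rose and 15 fell (28.9%), where rising or falling means an adjusted p below 0.05 in limma, a linear model with moderated spread, with Benjamini-Hochberg adjustment over all 18040 genes. The share among all genes was 69.5% (35.5% higher, 34% lower). Among rows with a mean of at least 100 it was 25.7% of 35 members against 74.9%. The residual SD of the members, given above, stands beside these shares, and its part in them was not tested. Of the 28 called members, 17 were among the 72 that reached the threshold in every library, and in 20 the knockdown and control libraries did not overlap. Those 20 are 20.6% of the members, where 58.8% of all genes were called without overlap. Called or not, the groups did not overlap in 24 members (24.7%), against 59.4% of all genes. By class, 8 box C/D RNAs rose and 5 fell, 2 box H/ACA RNAs rose and 8 fell, and 3 Cajal body RNAs rose and 2 fell. Quantile scaling, which lowers the median difference of all genes from -0.01 to -0.20 log2, gave 10 rises and 33 falls in place of 13 and 15. Without the 3 libraries low in these RNAs, a setting added after the data were seen, 15 rose and 17 fell.

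**Figure D2:**
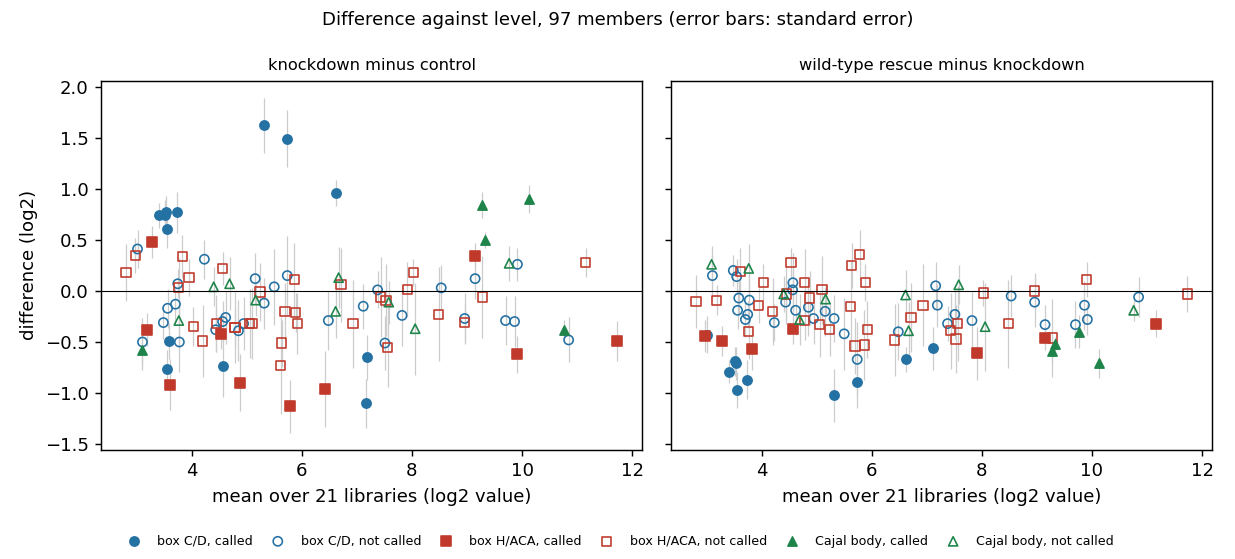
Log2 difference of each of the 97 members (vertical axis, with its standard error) against its mean log2 value over 21 libraries (horizontal axis), for knockdown minus control and for wild-type rescue minus knockdown. Filled points passed the test: 13 rises and 15 falls on the left, and 0 rises and 21 falls on the right.

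The MEG8 cluster moved together. SNORD114-1 was at log2 4.51, 3.99, 4.38 and 4.85 in the control libraries (replicates 1, 2, 3 and 5). It was at 6.58, 5.74, 5.69, 5.71 and 6.53 in the knockdown libraries (1 to 5). The groups did not overlap, and the rise was 1.62 ± 0.27 log2 (difference ± SE from limma, adjusted p = 2.66e-05), or 3.07-fold. With wild-type EWS/FLI it stood at 4.91, 4.35, 4.96, 5.53 and 5.4, below every knockdown library, a change of -1.02 ± 0.26 (adjusted p = 0.00191). With delta 22 it stood at 5.65, 5.09, 6.24 and 5.41, partly among the knockdown libraries, and with mut9 at 5.21, 5.7 and 5.29.

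SNORD114-14 was at 4.59, 5.04, 4.81 and 4.86 in control and at 7.21, 5.92, 5.7, 6.23 and 6.52 in knockdown libraries, again without overlap (1.49 ± 0.28, adjusted p = 9.12e-05 in limma). In the wild-type libraries it was at 5.56, 5.02, 4.83, 5.72 and 5.98, which reaches into the knockdown range, and the change was -0.89 ± 0.26 (adjusted p = 0.0065). In the delta 22 libraries it was at 6.92, 5.8, 6.5 and 6.32, within the knockdown range. SNORD114-9 was lower. The deposited values have the form of regularized logarithms, which draw low rows together and shrink both their spread and their differences, so narrow ranges at this level are no measure of precision. Control libraries lay between 3.01 and 3.07 and knockdown libraries between 3.61 and 3.88. Wild-type libraries lay between 2.66 and 3.19, delta 22 between 3.4 and 3.84 and mut9 between 3.61 and 3.69.

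All 7 members of the cluster that passed the threshold rose with the knockdown (0.61 to 1.62 log2) and fell with wild-type EWS/FLI (-1.02 to -0.69). None of the 7 passed the limma test between delta 22 rescue and knockdown (0 at an unadjusted p under 0.05 too), and 6 were higher with delta 22 than with wild type. The comparisons share the knockdown or wild-type libraries, so their values stand side by side and are no independent support of each other. Several passed the level threshold through the groups in which they are high. Without any threshold, 29 SNORD113 and SNORD114 rows had values above 0 in some library, and of these 13 rose and 0 fell with the knockdown while 26 had a positive difference, and 0 rose and 11 fell with wild-type EWS/FLI. Over all 40462 rows fitted this way, 34.2% were called with the knockdown (17.9% higher, 16.3% lower) and 29.5% with wild type (13.9% higher, 15.6% lower). Averaged over the 7 members, control libraries stood at 3.63 ± 0.05, knockdown libraries at 4.59 ± 0.23, those with wild type at 3.74 ± 0.18, delta 22 at 4.44 ± 0.15 and mut9 at 4.11 ± 0.08 (log2, SD, n = 4, 5, 5, 4 and 3). Within batches the mean rose with the knockdown in 4 of 4 (0.68 to 1.24) and fell with wild-type EWS/FLI in 5 of 5 (-1.08 to -0.42). The mean includes members chosen partly through their knockdown libraries, so part of these differences was built in. SNORD114-1 and SNORD114-14 reached the threshold in all 21 libraries. By batch they rose by 1.31 to 2.07 and 0.88 to 2.62 with the knockdown. With wild type they changed by -1.66 to -0.19 and -1.64 to -0.51.

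**Figure D3:**
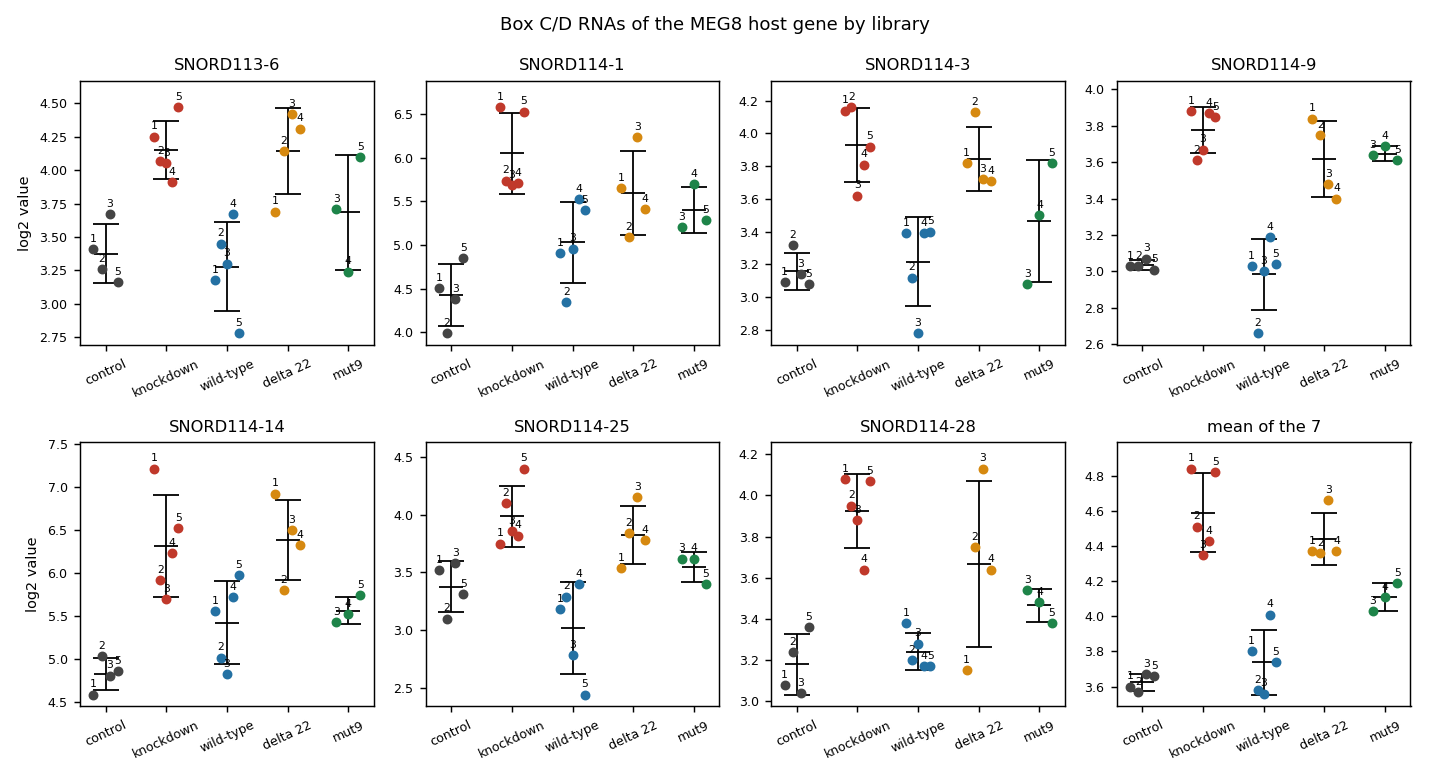
Log2 values (vertical axis) of the 7 members in introns of MEG8, and their mean, in each library by group (horizontal axis), with replicate numbers beside the points and mean and SD as bars. In the panel of the mean, knockdown libraries lie between 4.35 and 4.84 and control libraries between 3.57 and 3.67, while delta 22 libraries lie between 4.36 and 4.66.

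The other transcripts of the locus were set beside the cluster. MEG8, its host, rose by 0.73 ± 0.22 log2 with the knockdown (adjusted p = 0.00603, limma), fell by 0.61 ± 0.21 with wild-type EWS/FLI (adjusted p = 0.0155) and was 0.75 ± 0.22 higher with delta 22 than with wild type (adjusted p = 0.00619). In that last comparison MEG3 (0.32, adjusted p = 0.294), RTL1 (0.50, 0.211) and MEG9 (0.31, 0.221) were not called. MEG3, an imprinted long noncoding RNA upstream of it, rose by 1.59 ± 0.26 with the knockdown and fell by 0.64 ± 0.24 with the wild type. RTL1 and MEG9, looked up after the cluster was seen, rose by 1.75 ± 0.34 and 1.51 ± 0.21. With wild type, MEG3 and MEG9 were still above control, by 0.95 ± 0.26 (adjusted p = 0.00658, limma) and 0.87 ± 0.21 (adjusted p = 0.00302). RTL1 has an antisense transcript at the same place, and without a stated strand setting their reads cannot be told apart. With mut9, 3 of the 7 members fell against the knockdown (SNORD114-3, SNORD114-14 and SNORD114-28), where 0 were called without knockdown replicate 1, knockdown replicate 5 or mut9 replicate 4, and 1 without mut9 replicate 3.

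The other imprinted cluster of box C/D RNAs, SNORD116 within SNHG14 on chromosome 15, had 1 member that was called, in the direction opposite to MEG8. SNORD116-27 was at log2 4.47, 3.96, 3.52 and 4.22 in control and at 3.55, 3.05, 2.89, 3.28 and 3.63 in knockdown libraries, a change of -0.76 ± 0.18 (limma, adjusted p = 0.000786) in which the groups overlap. SNHG14, its host, fell by 1.12 ± 0.21 (adjusted p = 7.97e-05). Without a threshold, 15 SNORD116 rows had values, of which 3 fell and 0 rose, where 16.3% of all rows fell and 17.9% rose in that fit, so the count is near the share among all rows.

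SCARNA7, SCARNA9 and SCARNA13, abundant Cajal body RNAs, rose with the knockdown in 4 of 4 batches. SCARNA7, which guides methylation of U1 spliceosomal RNA, was at log2 9.84, 9.5, 9.58 and 9.74 in control and at 10.88, 10.79, 10.29, 10.26 and 10.64 in knockdown libraries. It rose by 0.90 ± 0.14 (limma, adjusted p = 1.38e-05), or 1.87-fold, with no overlap. With wild-type EWS/FLI it was back at 10.1, 9.76, 9.76, 9.9 and 9.77 (-0.71 ± 0.14), and with mut9 at 9.82, 9.72 and 9.68 (-0.83 ± 0.16). With delta 22 it was at 11.06, 10.38, 10.85 and 10.4, within or above the knockdown range. Its host KPNA4, an importin gene, rose by 0.47 with the knockdown.

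SCARNA9, a guide for U2 spliceosomal RNA, was at 8.71, 8.64, 9.07 and 8.8 in control and 9.88, 9.87, 9.62, 9.39 and 9.47 in knockdown libraries (0.84 ± 0.13, adjusted p = 5.97e-06, limma), while its host CEP295 was not called at -0.07. In the wild-type libraries SCARNA9 lay between 8.92 and 9.18, in the delta 22 between 9.18 and 9.64 and in the mut9 between 9.33 and 9.79. SCARNA13 was at 9.11, 9.15, 9.11 and 9.0 in control and 9.61, 9.59, 9.66, 9.56 and 9.52 in knockdown libraries, a rise of 0.50 ± 0.08 (adjusted p = 7.97e-06). Its host SNHG10 fell by 0.65 ± 0.12 (adjusted p = 6.13e-05), so that intronic RNA and host went in opposite directions. Between wild-type EWS/FLI and knockdown the changes were -0.52 for SCARNA13 and 0.30 for SNHG10. That comparison shares the knockdown libraries and is no independent support. SCARNA13 lay between 8.79 and 9.2 in the wild-type libraries and between 9.43 and 9.63 in the delta 22 libraries.

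SCARNA12, a guide for U5 spliceosomal RNA, fell. It was at 11.32, 11.12, 11.13 and 11.09 in control and 10.91, 10.62, 10.62, 10.71 and 11.06 in knockdown libraries (-0.38 ± 0.10, adjusted p = 0.00233, limma), and PHB2, whose exon it overlaps, fell by 0.65. It did not return with wild-type EWS/FLI, at 10.4, 10.69, 10.65, 10.8 and 10.44, and was lower still with delta 22, at 10.11, 10.43, 10.44 and 10.41. That difference from the knockdown (-0.43 ± 0.10, adjusted p = 0.0182) was the single call among the 97 members for delta 22, and it was lost without delta 22 replicate 1 (adjusted p = 0.0815). With mut9 it was at 11.05, 10.92 and 10.98, above every wild-type library.

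**Figure D4:**
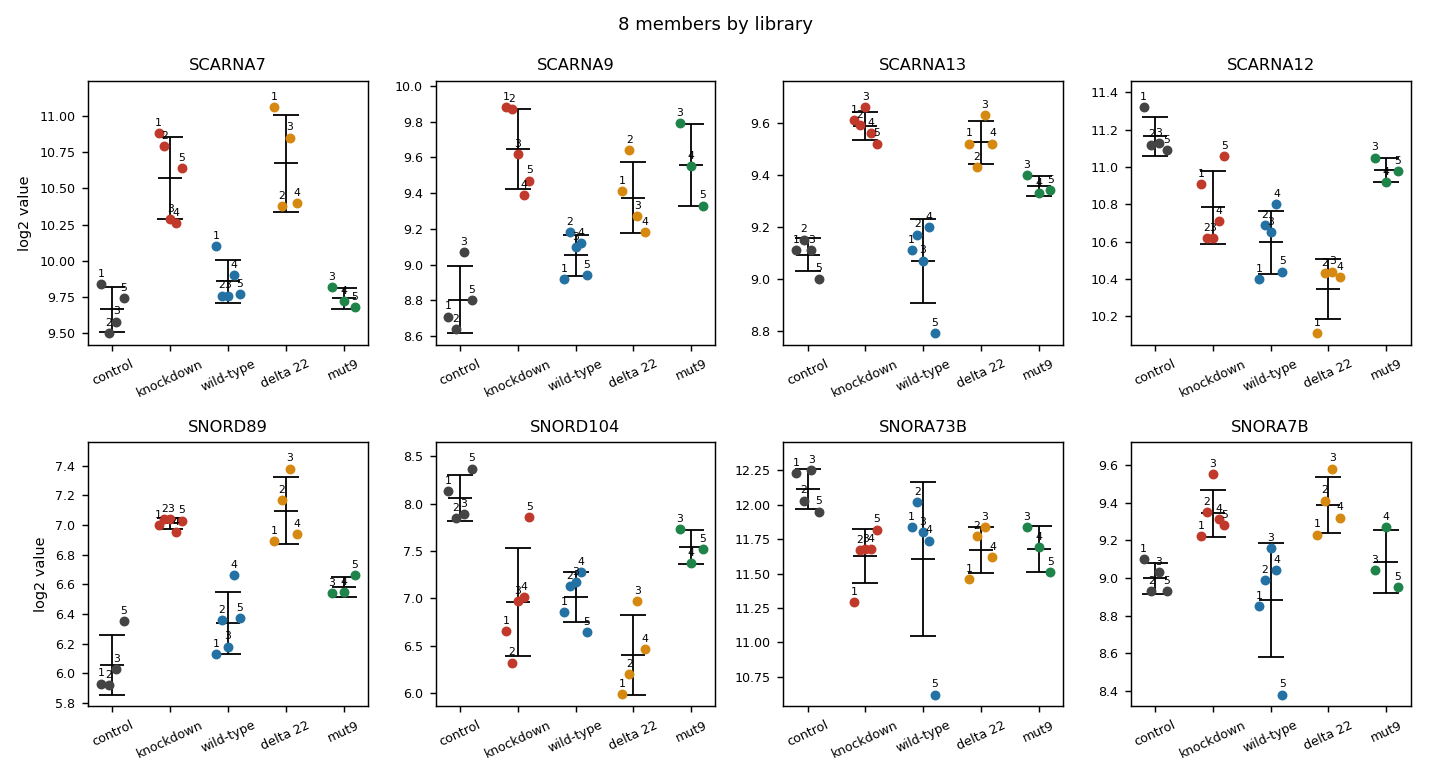
Log2 values (vertical axis) of 8 members in each library by group (horizontal axis), with replicate numbers beside the points and mean and SD as bars. SCARNA7, SCARNA9, SCARNA13 and SNORD89 are higher in every knockdown library than in every control library, while SNORD104 and SNORA73B are lower in the knockdown on average.

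Among box C/D RNAs outside the MEG8 cluster, 1 of 35 rose with the knockdown and 5 fell, both well under the shares among all genes (35.5% and 34%). The riser was SNORD89, at 5.93, 5.92, 6.03 and 6.35 in control and 7.0, 7.04, 7.04, 6.95 and 7.03 in knockdown libraries (0.96 ± 0.13, adjusted p = 1.74e-06, limma). It fell again with wild-type EWS/FLI (-0.67 ± 0.12) and lay between 6.89 and 7.38 with delta 22. RNF149, a ubiquitin ligase gene whose exon it overlaps, rose by 0.78 and fell by 0.62 in the same comparisons. SNORD104, a guide for 28S ribosomal RNA, was at 8.13, 7.85, 7.89 and 8.37 in control and 6.65, 6.32, 6.97, 7.01 and 7.86 in knockdown libraries, where replicate 5 reached the lowest control. The change was -1.10 ± 0.24 (adjusted p = 0.000487), close to that of its host SNHG25 (-1.08), and it was seen in 4 of 4 batches (-1.54 to -0.51).

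SNORD104 stayed below control with wild-type EWS/FLI: the libraries were at 6.85, 7.13, 7.17, 7.28 and 6.64, with a difference from the knockdown of 0.05 ± 0.23 (adjusted p = 0.853, limma), and the difference from control was -1.05 ± 0.24 (adjusted p = 0.00217). By batch it was 0.20 to 0.81 higher than in the knockdown in 4 of 5 batches and differed by -1.22 in batch 5, where the knockdown library was the highest and the wild-type library the lowest of its group. In 4 of 4 batches it was below control (-1.73 to -0.72). With mut9 it was at 7.73, 7.37 and 7.52. SNORD60, also a 28S guide, was at 7.88, 7.56, 7.83 and 7.89 in control and 7.13, 6.57, 6.94, 7.14 and 7.94 in knockdown libraries (-0.65 ± 0.22, adjusted p = 0.0126). In batch 5 the knockdown library was 0.05 above its control, against changes of -0.99 to -0.75 in the other 3 batches. SNORD3A, the U3 RNA of early ribosomal RNA cleavage, was at 11.29, 11.17, 11.28 and 11.22 in control and 10.49, 11.02, 10.49, 10.81 and 10.98 in knockdown libraries. Its difference of -0.48 ± 0.22 did not pass (adjusted p = 0.055) though the groups did not overlap.

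Of the 41 box H/ACA RNAs 8 fell and 2 rose with the knockdown (24.4%), well under the 69.5% of all genes (35.5% higher, 34% lower). SNORA54, which rose, reached the level threshold in 0 control libraries, so its rise was built into the choice. SNORA30 had the largest drop of all members, from 6.47, 6.69, 6.6 and 6.49 in control to 4.94, 4.94, 5.56, 5.56 and 6.2 in knockdown libraries (-1.13 ± 0.26, adjusted p = 0.000674, limma), without overlap, while SRCAP, its host and a chromatin remodeller gene, was not called (0.15). In the rescue libraries SNORA30 was at 5.6, 6.54, 6.14, 5.51 and 5.2 with wild type, at 4.77, 5.34, 5.24 and 5.07 with delta 22 and at 6.42, 5.89 and 6.22 with mut9. SNORA26 was at 5.53, 5.49, 5.69 and 5.52 in control and 4.29, 4.6, 4.73, 4.81 and 4.87 in knockdown libraries (-0.90 ± 0.28, adjusted p = 0.00701), beside a change of -2.43 in its host DANCR. DANCR rose by 1.07 with wild-type EWS/FLI, where SNORA26 differed from the knockdown by -0.07 ± 0.26.

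SNORA31B, which overlaps an exon of the translation-controlled tumour protein gene TPT1, fell from 10.16, 10.38, 10.55 and 10.33 to 9.45, 9.68, 9.79, 9.91 and 9.85 (-0.62 ± 0.18, adjusted p = 0.00411, limma), and was at 10.42, 10.16 and 10.25 with mut9. SNORA73B, the U17 RNA of ribosomal RNA processing, was at 12.23, 12.03, 12.25 and 11.95 in control and 11.29, 11.67, 11.68, 11.68 and 11.82 in knockdown libraries (-0.49 ± 0.20, adjusted p = 0.0335). That call was lost without control replicate 1 (adjusted p = 0.0771), control replicate 3 (0.0823) or knockdown replicate 1 (0.0875). Its host SNHG3 fell by 1.05. SNORA24B fell by 0.96 ± 0.37 (adjusted p = 0.0282), a call lost without control replicate 2 or 5 or knockdown replicate 1, 2 or 3 (adjusted p = 0.0521 to 0.0812). SNORA7B, in contrast, rose by 0.34 ± 0.13 (adjusted p = 0.0198), and that call was lost without knockdown replicate 3 (adjusted p = 0.0548) and under quantile scaling (0.12, adjusted p = 0.394).

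Wild-type EWS/FLI against the knockdown tests for a return of these RNAs. No member rose and 21 fell (21.6%), 10 box C/D, 7 box H/ACA and 4 Cajal body RNAs, where 61.8% of all genes were called (29.6% higher, 32.3% lower). Among rows with a mean of at least 100 it was 22.9% of 35 members against 66.8%. No member rose at an unadjusted p under 0.05 either. Without wild-type replicate 5, the library lowest in these RNAs, 2 members rose (SNORA31B and SNORA11F, by 0.30 and 0.35) and 13 fell, and without the 3 low libraries 1 rose and 15 fell. The 7 MEG8 cluster members, SCARNA7, SCARNA9, SCARNA13, SNORD89 and SNORA7B were among the falls, and their calls held without any single library. SNORA7B was at 9.22, 9.35, 9.55, 9.31 and 9.28 in knockdown and 8.85, 8.99, 9.16, 9.04 and 8.38 in wild-type libraries (-0.46 ± 0.12, adjusted p = 0.00227, limma). SNORD99 (-0.56 ± 0.21), SNORA22C (-0.61 ± 0.26), SNORA49 (-0.32 ± 0.13) and SCARNA10 (-0.40 ± 0.16) also passed, but without wild-type replicate 5 their adjusted p was 0.0908, 0.172, 0.102 and 0.113. These calls were also lost without knockdown replicate 1 or 5 for SNORD99, knockdown replicate 2, 3, 4 or 5 or wild-type replicate 3 for SNORA22C, knockdown replicate 2, 3 or 5 for SNORA49, and knockdown replicate 2 or 3 or wild-type replicate 1 for SCARNA10 (adjusted p = 0.0521 to 0.107).

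With all libraries, none of the 15 members that fell with the knockdown rose with wild-type EWS/FLI in the limma test. The wild-type libraries were below control for 16 members and above it for 0 (16.5%), against 39.6% of all genes (21.3% higher, 18.3% lower), with SNORD104, SNORD60, SNORA26, SNORA24B, SNORA30, SNORA31B, SNORA73B and SCARNA12 among them. At an unadjusted p under 0.05, 3 members were above control and 26 below. The count of calls was 13 without the 3 low libraries, 8 without wild-type replicate 5, 10 without control replicate 1, and 38 under quantile scaling. SNORA26, for example, was below control by -0.97 ± 0.28 (adjusted p = 0.00886, limma), and SNORA24B by -1.44 ± 0.37 (adjusted p = 0.00488). Without wild-type replicate 5 the calls of SNORA30, SNORA31B and SNORA73B were lost (adjusted p = 0.0728, 0.0645 and 0.0696). They were also lost without control replicate 2 or wild-type replicate 4 for SNORA30, control replicate 2 or 3 for SNORA31B, and any control replicate for SNORA73B (adjusted p = 0.0503 to 0.102).

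Few members differed between delta 22 and the knockdown. Against the knockdown 0 rose and 1 fell (1.03%, SCARNA12), where 4.5% of all genes were called (2.24% higher, 2.26% lower). At an unadjusted p under 0.05, 0 rose and 6 fell. The count of calls was 2 without knockdown replicate 2, 0 without delta 22 replicate 1 and 0 without the 3 low libraries. Against wild type, 19 members were higher and 4 lower with delta 22 (23.7%), against 61.2% of all genes (31.7% higher, 29.5% lower), and 22 were higher and 4 lower without the 3 low libraries. Higher with delta 22 were 6 of the 7 cluster members, SNORD89 (0.75 ± 0.13, adjusted p = 4.75e-05, limma), SCARNA7 (0.81 ± 0.14, adjusted p = 6.88e-05), SCARNA13 (0.46 ± 0.08, adjusted p = 3.1e-05) and SNORA7B (0.50 ± 0.13, adjusted p = 0.00181). SNORD104, SNORA30 and SCARNA12 were lower with delta 22, and each of those calls was lost without delta 22 replicate 1 (adjusted p = 0.126, 0.0827 and 0.176). They were also lost without wild-type replicate 2, 3 or 4 or delta 22 replicate 2 or 4 for SNORD104, wild-type replicate 2 or 3 or delta 22 replicate 4 for SNORA30, and wild-type replicate 2, 3 or 4 or delta 22 replicate 4 for SCARNA12 (adjusted p = 0.05 to 0.115). The call of SCARNA12 was also lost with the replicate number as a block (adjusted p = 0.0697).

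The mut9 group has 3 libraries. Against the knockdown 3 rose and 6 fell (9.28%), where 48.6% of all genes were called (23% higher, 25.5% lower). SCARNA7 fell by 0.83 ± 0.16 (adjusted p = 0.000214, limma), and that call held without any single library. SNORD89 fell by 0.43 ± 0.14 (adjusted p = 0.0162), lost without mut9 replicate 3 (0.0566) or 4 (0.0548). SNORA31B rose by 0.54 ± 0.19 (adjusted p = 0.025), lost without knockdown replicate 1 (0.0599), mut9 replicate 3 (0.1) or mut9 replicate 5 (0.0549). The count was 3 without mut9 replicate 3 or 4, 5 without mut9 replicate 5, 4 without knockdown replicate 1 and 10 without the 3 low libraries.

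Against wild type, 4 members were higher with mut9 and 0 lower (4.12%), where 18.8% of all genes were called (11.2% higher, 7.61% lower). They were SNORD114-9 (0.66 ± 0.13, adjusted p = 0.00161, limma), SCARNA9 (0.50 ± 0.14, adjusted p = 0.0148), SCARNA12 (0.39 ± 0.11, adjusted p = 0.0191) and SCARNA13 (0.29 ± 0.08, adjusted p = 0.0183). SNORD114-9 reached the level threshold in 3 of 3 mut9 and 0 of 5 wild-type libraries, so for it a difference was built into the choice. No member was lower at an unadjusted p under 0.05. The calls of SCARNA9, SCARNA12 and SCARNA13 were lost without mut9 replicate 3 (adjusted p = 0.114, 0.0889 and 0.086), and further without mut9 replicate 4 for SCARNA9 and SCARNA13 and mut9 replicate 5 for SCARNA12 (0.0505, 0.0521 and 0.0513). The count was 4 without the 3 low libraries, 1 without mut9 replicate 3, 2 without mut9 replicate 4 and 7 without wild-type replicate 4. SCARNA9 stood with mut9 near its knockdown level while SCARNA7 stood near its wild-type level, so these guides of the spliceosomal RNAs were not ordered alike over the rescue groups. A direct test between these members was not made.

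Members were compared with their host genes where the host was tested (90 members, 74 hosts). Of the 27 such members called between knockdown and control, the host was called in the same direction for 23, in the opposite direction for 1 (SCARNA13 in SNHG10) and not called for 3. Conversely, 45 members were not called although their host was, and 55 of the 74 hosts were called. The 7 MEG8 cluster members, which share a single host, are among the 23. Across the 90 members the differences correlated at r = 0.70, and at 0.58 over the 83 outside MEG8. The points share libraries and, for several members, the host and its reads, so r is given as a description. For wild-type rescue against knockdown the host was called in the same direction for 13 of 21 called members and was opposite for 6. SNORA49 (-0.32) in EP400 (0.34) and SNORA7B (-0.46) in the pseudogene RPL32P3 (0.33), whose own reads are uncertain, belong to the latter. The call of SNORA49 was lost without wild-type replicate 5 (-0.15, adjusted p = 0.102, limma). The 7 MEG8 cluster members, again through a single host, are among the 13. Of the 74 hosts, 48 were called in this comparison.

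**Figure D5:**
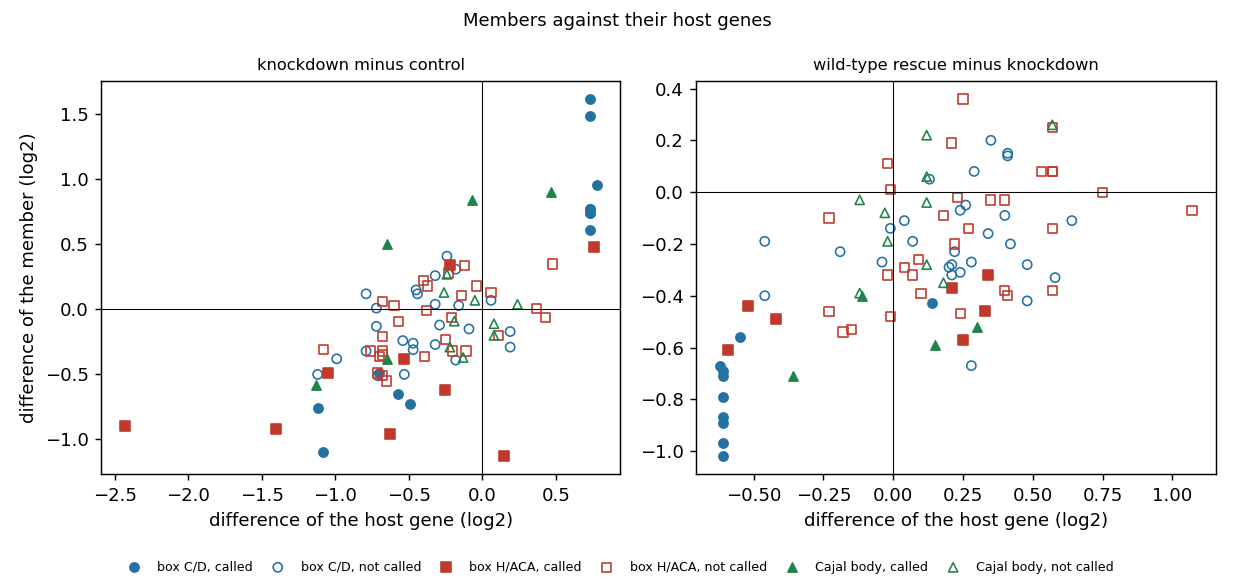
Log2 difference of each member (vertical axis) against that of its host gene (horizontal axis) for 90 members with a tested host, for knockdown minus control and wild-type rescue minus knockdown. The column of points at 0.73 on the left is the MEG8 cluster, and the point at -2.43 is SNORA26 in DANCR.

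The proteins that carry these RNAs were read from lists written with earlier results of these data known. Of 12 tested genes for box C/D particle proteins and assembly factors, 12 fell and 0 rose with the knockdown (median difference -0.55, against -0.01 over all genes), and 10 rose with wild-type EWS/FLI. Among all genes 34% fell with the knockdown and 29.6% rose with wild type. Fibrillarin (FBL), the methyltransferase, fell by 0.96 ± 0.08 log2 (adjusted p = 1.23e-09, limma) and rose by 0.55 ± 0.07, and NOP56 and NOP58, its core partners, changed by -0.71 and -0.49. Of 7 genes for box H/ACA particles, 7 fell (median -0.72) and 5 rose with wild type. DKC1 (dyskerin), the pseudouridine synthase, fell by 0.72 ± 0.10 and rose by 0.39 ± 0.09, and NHP2, a core protein, fell by 1.32 and rose by 0.59. With delta 22 the median differences from the knockdown were -0.03 and -0.01. Beside the 7 of 7 box H/ACA protein genes that fell with the knockdown stand 8 of 41 box H/ACA RNAs that fell and 2 that rose, at a wider residual SD.

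Of 16 tested genes for Cajal bodies and small RNA maturation, 12 fell and 1 rose with the knockdown. With wild type 13 rose and 1 fell. Among all genes, 34% fell and 35.5% rose with the knockdown, and 29.6% rose and 32.3% fell with wild type. COIL (coilin), the marker protein of Cajal bodies, fell by 0.75 ± 0.08 and rose by 0.63 ± 0.07, and TGS1, which modifies the caps of small nuclear RNAs, fell by 1.02 and rose by 1.27. Of the 14 Cajal body RNAs, SCARNA7, SCARNA9 and SCARNA13 rose with the knockdown, against the direction of most of these genes, and SCARNA12 and SCARNA23 fell (-0.38 and -0.58). SCARNA23 reached the level threshold in 2 control and 0 knockdown libraries, so part of its fall was built into the choice. Of 23 listed host genes, mostly long noncoding RNAs, 2 rose (MEG3 and MEG8) and 12 fell with the knockdown. Those falls are a larger share than the 34% of all genes, and the rises a smaller one than the 35.5%. With wild type 4 rose and 6 fell, both under the shares of all genes (29.6% higher, 32.3% lower). Of 8 other structured small RNAs with enough signal, 1 fell and 0 rose with the knockdown, under the 34% and 35.5% of all genes. The 1 was TERC, the RNA template of telomerase and itself a box H/ACA RNA (-0.72 ± 0.20, adjusted p = 0.00322, limma). The median difference of the 8 with wild type was -0.20.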

How the data were processed

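RNA sequencing libraries were made with ScriptSeq from 2.5 ug of total RNA per library, per the labels' protocols. Reads were processed with bcl2fastq, STAR 2.5.2b, HTSeq and DESeq2 on hg19, per the submitters' processing notes. The values deposited by the authors are normalized and on a log2 scale, with the form of regularized logarithms (-4.09 to 20.22, with 17358 rows at 0 in every library). Strand and multi-mapping settings of the counting are not given in the sources used here. No pseudocount was added and depth is not kept.

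Of 57820 rows, 51996 were matched to symbols in GENCODE 29. Rows reaching 10 on the linear scale in 3 libraries (18040) were fitted with limma 3.58.1 (trend) in R 4.3.3, with 1 mean per group over all 21 libraries, 2-sided, and adjusted p is after Benjamini-Hochberg over all of them. The fit was tested on simulated data. The members and lists were chosen with earlier results of these data known. Members were named by rule: per comparison and class the 3 largest called rises and falls with a mean of at least 100, the 5 highest means per class, a fixed set of well-known RNAs with the SNORD113 to SNORD116 clusters, the threshold's edges and members beside their hosts. Those outside it are said to be so.

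Replicate numbers are the labelled batch and so pair libraries. Over 34 pairs of libraries of different groups with the same number, deviations from group means correlated at 0.203 on average (0.228 over the members), and 24 pairs were over 0.1, against -0.049 over 141 other pairs. Hosts and sequences come from GENCODE 29 on GRCh38, matched by gene identifier, and no hg19 coordinate was used. No 2 libraries were identical (highest r 0.9978). Alternatives were no filter, a mean of at least 100, 2 other scalings, array weights, a replicate block, fits of the compared groups alone or of batches 3 to 5, and leaving out libraries.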

Additional observations from a re-analysis of the deposited data

Results flagged for a closer look

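The class means and the named members gave 120 groups of libraries, which share libraries and members and so are not independent. For independent groups chance gives about 6 (1 in 20), so that number is no test here. Of the 120, 14 had a library whose gap to its neighbours was large for the group's range. Of these, 5 were wild-type replicate 5, the lowest of its group in the Cajal body mean (log2 6.28, next 6.94), SNORD99 (5.78, next 6.73), SNORA73B (10.62, next 11.74), SNORA49 (10.3, next 11.11) and SNORA22C (6.4, next 7.61). Knockdown replicate 1 was lowest in the box H/ACA mean (5.5, next 6.03), SNORA73B (11.29, next 11.67) and SNORA22C (7.45, next 8.13). Delta 22 replicate 1 was lowest for SNORA24B (4.87, next 5.94), SNORA22C (7.39, next 8.35) and SCARNA12 (10.11, next 10.41). On the high side stood knockdown replicate 5 in the box C/D mean (6.14, next 5.77) and delta 22 replicate 3 in the MEG8 cluster mean (4.66, next 4.37) and SNORD60 (7.56, next 6.67).

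The named members whose level differed between the wild-type rescue and a mutant rescue in limma were the following. With delta 22 minus wild type, the differences of the MEG8 cluster were 0.87 for SNORD113-6, 0.63 for SNORD114-3, 0.64 for SNORD114-9, 0.96 for SNORD114-14, 0.81 for SNORD114-25 and 0.43 for SNORD114-28. Others were 0.75 for SNORD89, 0.67 for SNORD99, -0.61 for SNORD104, 0.66 for SNORA22C, -0.69 for SNORA30, 0.36 for SNORA49 and 0.5 for SNORA7B. Among Cajal body RNAs they were 0.81 for SCARNA7, 0.32 for SCARNA9, 0.48 for SCARNA10, -0.24 for SCARNA12 and 0.46 for SCARNA13. Several of the delta 22 calls were lost without single libraries in limma, beside those of SNORD104, SNORA30 and SCARNA12 given in the report. SNORA22C was lost without wild-type replicate 5 (0.39, adjusted p = 0.141), wild-type replicate 3 (0.0501) or delta 22 replicate 2, 3 or 4 (0.111 to 0.118). SCARNA9 was lost without delta 22 replicate 2 (0.23, adjusted p = 0.134) or 1 (0.0625) or wild-type replicate 1 or 5 (0.069 and 0.0651). SNORA49 was lost without delta 22 replicate 2 or 3 (adjusted p = 0.0577 and 0.0663) and was 0.19 without wild-type replicate 5. SCARNA10 was lost without delta 22 replicate 2 (adjusted p = 0.0743) and was 0.3 without wild-type replicate 5. SNORD99 was lost without delta 22 replicate 3 (adjusted p = 0.0541) and was 0.44 without wild-type replicate 5, and SNORD114-28 was lost without delta 22 replicate 3 (0.28, adjusted p = 0.099). With mut9 minus wild type they were 0.66 for SNORD114-9, 0.5 for SCARNA9, 0.39 for SCARNA12 and 0.29 for SCARNA13. SNORD114-9 reached the level threshold in 0 wild-type libraries, so a difference from wild type was built into its choice.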

How the results depend on the processing

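The counts of members called (all rises and falls) moved as follows. With a mean of at least 100 only 35 members are left, and the counts were 9 for knockdown against control, 8 for wild type against knockdown, 3 for mut9 against knockdown, 9 for wild type against control and 10 for delta 22 against wild type. The same 35 members had 9, 8, 3, 7 and 10 calls without that filter, so the lower counts come from fewer members, except for wild type against control, at 9 against 7. In batches 3 to 5, with fewer libraries, they were 13, 0 for delta 22 against knockdown, 1 for mut9 against knockdown, 8 for wild type against control, 15 for delta 22 against wild type and 2 for mut9 against wild type. Quantile scaling gave 43 for knockdown against control and 38 for wild type against control. Fitting the compared groups only gave 0 for delta 22 against knockdown and 15 for delta 22 against wild type. Without a filter, mut9 against knockdown gave 5. Array weights gave 14 there and 8 for mut9 against wild type. Without the 3 low libraries, delta 22 against knockdown gave 0.

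Leaving out 1 library at a time gave 24 to 30 calls for knockdown against control, 15 to 23 for wild type against knockdown, 0 to 2 for delta 22 against knockdown, 3 to 8 for mut9 against knockdown, 8 to 19 for wild type against control, 17 to 27 for delta 22 against wild type and 1 to 7 for mut9 against wild type. For the 7 MEG8 cluster members it gave 7 to 7 in both comparisons of the knockdown with control and wild type, 5 to 7 for delta 22 against wild type and 0 to 3 for mut9 against knockdown. That last count was 1 without a filter, 1 under quantile scaling, 1 with the compared groups only and 0 in batches 3 to 5. For knockdown against control, batches 3 to 5 lost SNORD113-6 (adjusted p = 0.0627, limma) and SNORD114-25 (0.095). Quantile scaling also lost SNORD114-25 (0.0626). For wild type against knockdown, batches 3 to 5 lost SNORD114-1 (0.0764) and SNORD114-14 (0.0869).

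Of 79 calls of named members, 34 held under every alternative run for them and 45 were lost under at least 1, and none of the 79 changed direction. With the replicate number as a block, 78 of the 79 held, the lost one being SCARNA12 for delta 22 against wild type (-0.24, adjusted p = 0.0697 in limma), and no count of members moved by over 1.5 times. With depth not kept in the values, no counting error can be given for low members.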

Other observations

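Some members not described above were called between knockdown and control, all named here after their values were seen. SNORA35B, in an intron of LRCH2, fell by 0.92 ± 0.25 log2 (limma, adjusted p = 0.00243) beside -1.40 in its host. SNORD70, in an intron of the box C/D protein gene NOP58, fell by 0.73 ± 0.31 (adjusted p = 0.0385) beside -0.49 in NOP58. SNORD36C, which overlaps an exon of the ribosomal protein gene RPL7A, fell by 0.49 ± 0.18 (adjusted p = 0.0186) beside -0.70 in RPL7A. SCARNA23, in an intron of the DNA polymerase gene POLA1, fell by 0.58 ± 0.19 (adjusted p = 0.00964) beside -1.13 in POLA1. It reached the level threshold in 4 libraries, of which 2 were control and 0 knockdown, so part of its fall was built into the choice. SNORA35B reached it in 4 control libraries and 1 knockdown library. SNORA54, in an intron of NAP1L4, rose by 0.48 ± 0.16 (adjusted p = 0.0142) beside 0.76 in NAP1L4. It reached the level threshold in 5 of 5 knockdown and 0 control libraries, so its rise was built into the choice and its p-value is no support. SNORA12, in an intron of CWF19L1, was not called there (0.22) but was 0.55 ± 0.16 higher with delta 22 than with wild type (adjusted p = 0.00613), beside -0.24 in CWF19L1.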
